A study of Mus musculus with 18 samples.

Results

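Interleukin 10 damps the response of macrophages and T cells to gut bacteria, and mice without it develop inflammation of the colon. Colon tissue of such mice was compared between week 14 and week 6 of life, the oldest and the youngest age sampled. The comparison holds 6 of the 18 libraries of the series, chosen by genotype and age alone, with 3 mice at each age. All 6 mice were BALB/c Il10KO animals, so the older and the younger group alike lacked the cytokine, and the labels name no treatment. The other 12 libraries came from 3 BALB/c wild-type mice at week 6 and from 3 Il10KO mice at each of weeks 8, 10 and 12, and each mouse was sampled at a single age. No wild-type mouse older than 6 weeks was analysed here, so that age and disease cannot be told apart. The sex of the mice and the way in which Il10 was disrupted are not given in the sources used here. Polyadenylated RNA of a short piece of distal colon was sequenced with paired reads, and the table analysed here holds estimated counts for 16321 genes.

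The 3 libraries of week 14 were not alike. RNA integrity numbers (RIN, a score of RNA intactness from 1 to 10) were 9, 6.5 and 5.8 in replicates 1, 2 and 3 of week 14, against 8.8, 9 and 8.9 at week 6. The mice of week 14 came from cages A, C and E and those of week 6 from cages A, B and F, so that cage A alone held a mouse of each age, replicate 1 of both groups. Lipocalin, a marker of gut inflammation given in the labels, was 2044, 3758 and 4289 ng/g at week 14 against 4.72, 2.27 and 2.31 ng/g at week 6, and the groups did not overlap (exact permutation test, two-sided, p = 0.1, the smallest that 3 against 3 can give). Depth was 34306973, 27565728 and 28305260 counts at week 14 and 27994123 to 28910893 at week 6. The targeted gene gave no estimated count in any of the 6 libraries, where a count of 0 allows up to 0.0869 to 0.108 CPM, but the wild type also held only 1, 0 and 3 counts of Il10, so this depth cannot check the genotype. Distal colon genes summed to 644 to 722 CPM at week 14 and 624 to 722 CPM at week 6, and proximal colon genes to 38.5 to 371.5 CPM against 433.3 to 472.1 CPM. Because each library is shown on its own below, values in a series of 3 always stand in the order of replicates 1, 2 and 3.

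In a healthy colon the surface is covered by absorptive colonocytes and mucus-producing goblet cells that are renewed from crypts, above a stroma of fibroblasts, vessels, nerves and muscle. In colitis, T cells release interferon gamma and interleukin 17, epithelial cells answer with chemokines and antimicrobial proteins, and neutrophils enter the tissue. Promoters of genes induced by interferon gamma often hold GAS elements, and also interferon-stimulated elements, which are bound by factors of the IRF family. Genes of neutrophil-attracting chemokines are known targets of NF-kB, a factor switched on by microbial products, interleukin 1 and tumour necrosis factor.

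The promoters of 5 genes are shown, each as the 250 bases before the start in RefSeq (GRCm38.p6, forward strand). These genes were picked by name and each holds at least 1 match, so they do not stand for all called genes. Motifs were searched in windows of 300 bases, from 250 before to 50 after the start, on both strands. The letters were GGGA, any base and TTTCC for NF-kB, GAAA, any 2 bases and GAAA for the interferon-stimulated element, and TTC, any 3 bases and GAA for GAS. The NF-kB and GAS letters and those of the interferon-stimulated element do not overlap each other in these sequences, and capitals mark each match.
Cxcl1, chr5:90890995-90891244, NF-kB match: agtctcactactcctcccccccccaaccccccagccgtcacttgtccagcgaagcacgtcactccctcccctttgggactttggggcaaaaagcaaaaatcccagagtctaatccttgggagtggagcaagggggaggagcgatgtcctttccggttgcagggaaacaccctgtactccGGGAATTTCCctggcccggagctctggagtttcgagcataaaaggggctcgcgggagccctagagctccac
Cxcl2, chr5:90903649-90903898, NF-kB match: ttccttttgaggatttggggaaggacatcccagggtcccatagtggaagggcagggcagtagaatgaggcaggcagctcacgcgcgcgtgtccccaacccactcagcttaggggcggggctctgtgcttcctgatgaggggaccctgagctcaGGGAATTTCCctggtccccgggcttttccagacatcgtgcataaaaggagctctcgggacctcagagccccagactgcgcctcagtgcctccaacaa
Cxcl3, chr5:90785851-90786100, NF-kB match: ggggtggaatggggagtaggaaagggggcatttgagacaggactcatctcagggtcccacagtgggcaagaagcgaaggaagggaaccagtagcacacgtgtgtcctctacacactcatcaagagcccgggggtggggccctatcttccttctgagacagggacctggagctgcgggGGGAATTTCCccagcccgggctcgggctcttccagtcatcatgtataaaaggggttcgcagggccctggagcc
Igtp, chr11:58199306-58199555, GAS match, then interferon-stimulated element match: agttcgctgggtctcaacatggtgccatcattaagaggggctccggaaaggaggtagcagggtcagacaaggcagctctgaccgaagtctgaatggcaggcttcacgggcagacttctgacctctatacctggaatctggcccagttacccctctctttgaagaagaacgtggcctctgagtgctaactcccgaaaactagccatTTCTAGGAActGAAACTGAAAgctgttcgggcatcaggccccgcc
Steap4, chr5:7960222-7960471, GAS match: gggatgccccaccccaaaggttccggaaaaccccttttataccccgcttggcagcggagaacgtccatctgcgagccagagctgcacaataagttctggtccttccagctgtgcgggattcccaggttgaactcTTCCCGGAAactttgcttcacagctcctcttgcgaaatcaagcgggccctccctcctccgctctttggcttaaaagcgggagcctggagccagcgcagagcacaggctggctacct
The NF-kB letters began 71, 97 and 73 bases before the start of Cxcl1, Cxcl2 and Cxcl3, which encode chemokines that draw neutrophils. They occurred in 54 of the 12302 promoters of tested genes (0.439%), in 0.517% of those of genes called higher at week 14 and in 0.279% of those of genes called lower. The interferon-stimulated letters stood in 3.28% of all promoters and in 9 of 12 promoters of interferon-gamma inducible genes, and the GAS letters in 7.12% of all and in 5 of those 12. Igtp, an interferon-inducible GTPase that acts against intracellular microbes, held both, 34 and 45 bases before its start. Steap4, a metalloreductase that reduces iron and copper, held the GAS letters 116 bases before its start. A match describes letters in a window and is not a measured binding site.

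Across genes, replicates 2 and 3 of week 14 differed from week 6 by gene length, and replicate 1 far less. Levels are given as CPM, counts per 1000000 of the effective (TMM-adjusted) library size, and differences as log2 CPM from the mean of week 6. Genes were put in 5 classes of equal number by length. In the shortest class (under 1379 bases) the median difference was 0.13, 1.91 and 1.68 in the 3 libraries of week 14. In the longest class (over 4145 bases) it was -0.14, -1.75 and -1.60. Libraries of weeks 10 and 12, with RIN of 8.5 to 9, leaned the same way by less. They had 0.27 to 0.92 in the shortest class and -0.87 to -0.35 in the longest. The shortest class took 57.9% and 50.1% of all counts in replicates 2 and 3, 25.0% in replicate 1 and 22.8% to 23.3% at week 6. At weeks 10 and 12 it took 24.9% to 37.4%. Ribosomal protein genes, which are short, took 3.13%, 14.0% and 10.6% of counts against 2.68% to 2.81%. Short genes were called higher more often, with 57.6% of the shortest class and 3.11% of the longest, while 0.872% of the shortest and 20.8% of the longest were called lower. The part that RNA quality and gene length have in the results was not tested, and a length-centred value, from a fit in which each library was centred within 20 bins of gene length, is therefore given beside the main one. Replicate 1 had a Pearson's r across genes of 0.981 with the libraries of week 6, replicates 2 and 3 had 0.755 to 0.794, and the week 6 libraries had 0.984 to 0.986 with each other.

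**Figure D1:**
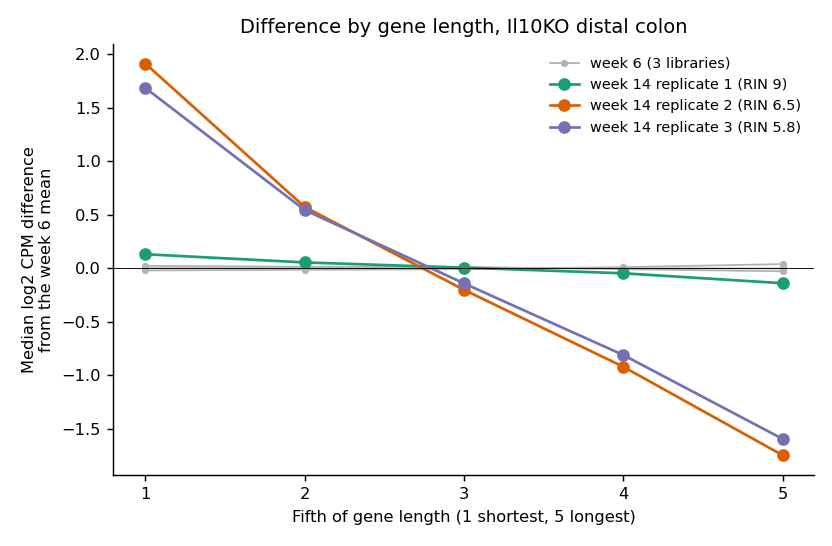
Median difference in log2 CPM from the week 6 mean (vertical axis) in each of 5 classes of gene length, from shortest to longest (horizontal axis), for the 3 libraries of week 14 in colour and the 3 of week 6 in grey. Replicates 2 and 3 run from 1.91 and 1.68 in the shortest class to -1.75 and -1.60 in the longest, and replicate 1 from 0.13 to -0.14.

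The 3 libraries of week 14 together differed from week 6 in many genes. In edgeR's quasi-likelihood test 5388 of 16300 genes (33.1%) passed an adjusted p of 0.05, with 3993 higher (24.5%) and 1395 lower at week 14 (8.56%). The median change over all tested genes was -0.06. Groups did not overlap in CPM for 3124 genes higher (19.2%) and 3508 lower (21.5%). The split by direction depended on the scale: with length-centred counts 3435 genes were higher (21.4%) and 847 lower (5.28%), and limma on log2 of TPM, a length-scaled unit, plus 0.1 gave 909 higher (5.58%) and 9158 lower (56.2%) around a median of -1.15. On all 3 scales 737 genes were called higher (4.52%) and 532 lower (3.26%), and of these 415 (2.55%) and 496 (3.04%) also had groups that were apart on each of the 3 scales. The count was 11335 of 16321 (69.5%, with 32.9% higher and 36.5% lower) without replicate 1 of week 14, and was 1880 and 2251 without replicates 2 or 3. Replicate 1 on its own, the only week 14 library with RIN over 7, gave 0 of 16319 genes past the threshold (0.0%, 239 at an unadjusted p under 0.05), in a fit that assumes a lone library to vary like the other groups. Leaving out replicate 1, 2 or 3 of week 6 gave 2734, 2781 and 2601 genes. No gene passed in edgeR with RIN as a covariate, with cage as a factor or with only the 6 compared libraries (429, 5020 and 4257 at an unadjusted p under 0.05), so that every edgeR call against week 6 given below, alone or in the count of a list, is lost in these fits. Each change given below is a log2 fold change with its SE, fitted over all 18 libraries, with n = 3 at each age, and "rose" and "fell" mean an adjusted p under 0.05 in edgeR. The SE rests on the spread shared by all groups, and is no measure of the spread at week 14, which was wider.

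Counted library by library, the week 14 samples gave very different numbers of genes beyond the week 6 range. Replicate 1 had 155 genes more than 1 log2 unit above the highest library of week 6 (0.951%) and 101 as far below the lowest (0.62%). Replicate 2 had 4259 (26.1%) and 4952 (30.4%), and replicate 3 had 4022 (24.7%) and 4581 (28.1%). Without a margin, replicate 1 lay above every week 6 library in 28.9% of genes and below every one in 29.7%, and replicates 2 and 3 lay above in 43.2% and 43.7%. All 3 libraries lay above by 1 log2 unit in 113 genes (0.693%) and below in 47 (0.288%). These genes are described next, since in them the library with intact RNA lay on the same side as the other two.

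Of the 113 genes above week 6 by that margin in all 3 libraries, 4 were on the cytotoxic list of 12 and 4 on the antimicrobial list of 18. The interferon-gamma list of 20 and the plasma cell list of 18 held 3 each, and the colonocyte list of 24 held 2. Clca4b, a colon gene of the calcium-activated chloride channel regulator family (chr3:144910921-144932529, mm10), had 3.89, 4.84 and 9.55 CPM at week 6 and 108, 1567 and 1936 CPM at week 14. It rose by 7.63 ± 1.12 (adjusted p = 0.00616). Nos2, which encodes the nitric oxide synthase induced in inflammation (chr11:78920787-78960254), had 0.581, 1.20 and 1.32 CPM at week 6 and 14.1, 94.2 and 151 CPM at week 14. Every library of week 14 was thus far above all of week 6, and Nos2 rose by 6.38 ± 0.87 (adjusted p = 0.00565). Ido1, which degrades tryptophan to kynurenine, had 0.489, 0.632 and 0.908 CPM at week 6 against 10.7, 128 and 171 CPM. The change was 7.24 ± 1.25, and in cage A alone, between the replicates 1 of both ages, the difference was 4.27. Gzma, the granule protease granzyme A of cytotoxic lymphocytes (chr13:113093825-113100981), had 0.245, 0.158 and 0.282 CPM against 5.06, 189 and 150.3 CPM, and rose by 8.94 ± 1.46. Replicate 1 was above week 6 here, and replicates 2 and 3 were far higher still. Ccl8, a chemokine for monocytes and T cells, had 1.80, 0.980 and 1.54 CPM at week 6 and 12.9, 606 and 432 CPM at week 14 (7.92 ± 1.32). Steap4 had 15.2, 8.47 and 8.74 CPM at week 6 and 89.6, 227 and 263 CPM at week 14. Its rise of 4.16 ± 0.53 had the same adjusted p as that of Nos2. Duoxa2, a maturation factor of an epithelial enzyme that makes hydrogen peroxide, went from 18.8, 21.6 and 18.6 CPM to 88.2, 545 and 590.2 CPM (4.37 ± 0.57). Btnl2, a butyrophilin-like protein that dampens T cells, rose by 3.80 ± 0.76 and was nearly level over the 3 libraries, with 5.72, 9.24 and 7.79 CPM against 0.282 to 0.979. Ly6g2, a gene of the Ly6 family of surface proteins, rose by 6.94 ± 1.06, with 8.51 CPM in replicate 1, 247 and 235 in the other libraries and 1.10 to 1.65 at week 6. The ribosomal protein pseudogene Rps6-ps4 had the widest gap, with no count at week 6 and 1.19, 13.0 and 4.83 CPM at week 14, at least 152-fold higher. Reads of a pseudogene cannot be told apart with certainty from those of its parent gene. With length-centred counts each of these genes was called but Rps6-ps4 (adjusted p = 0.0775) and Ly6g2, for which no length was known, and on TPM all of them were.

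**Figure D2:**
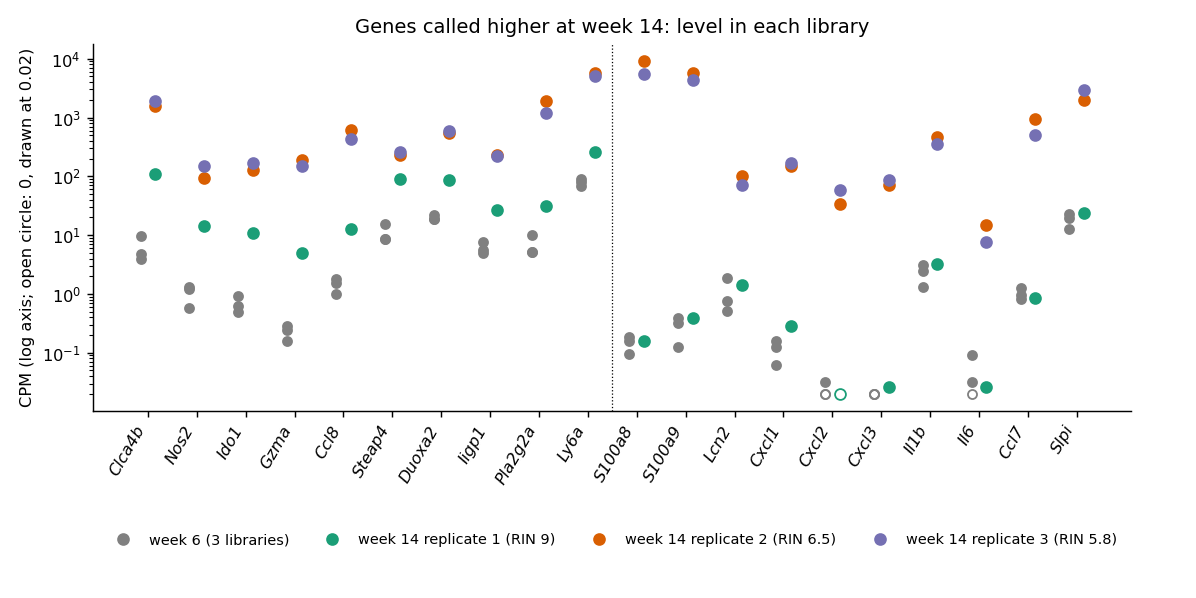
Level of 20 genes called higher at week 14 in each library (vertical axis, CPM on a log axis), week 6 in grey and the week 14 libraries in colour. Left of the dotted line replicate 1 of week 14 lies above all week 6 libraries, as for Nos2 at 14.1 against at most 1.32, and right of it replicate 1 lies among them or close by, as for S100a8 at 0.158 while replicates 2 and 3 reach 9273 and 5436.

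Of the 47 genes as far below week 6 in all 3 libraries, 1 was on the colonocyte list of 24 and none on the matrix and collagen list of 20. The colonocyte list also had 2 genes as far above. Car1, the carbonic anhydrase of surface colonocytes (chr3:14766216-14808368), had 1192, 1123 and 907 CPM at week 6 and 387, 134 and 123 CPM at week 14. Car1 fell by 2.32 ± 0.49 on the log2 scale (adjusted p = 0.00616), and the difference within cage A was -1.62. Slc4a4, the sodium bicarbonate cotransporter of the colonocyte base (chr5:88886818-89239653), had 249, 323 and 269.8 CPM against 102, 14.0 and 11.0 CPM. Its change was -2.72 ± 0.79 (adjusted p = 0.0189). Bmp3, a member of the bone morphogenetic protein family, went from 34.9 to 45.8 CPM to 15.5 CPM in replicate 1 and under 2 CPM in replicates 2 and 3 (-2.71 ± 0.85). Klb, the co-receptor beta-klotho, had 21.8, 22.4 and 24.4 CPM at week 6 and 9.06, 0 and 0.156 CPM at week 14, and its change was -2.84 ± 1.04 (adjusted p = 0.0481). Fndc5, the precursor of irisin, fell from 6.45 to 7.42 CPM to 1.95, 0.312 and 0.571 CPM (-2.80 ± 0.55). The other falls with a wide gap were lower expressed. Adam12, a cell-bound metalloprotease, had 2.28 to 2.94 CPM at week 6 and 1.08, 0.437 and 0.156 CPM at week 14 (-2.10 ± 0.57). Kif26b, a kinesin family member, had 2.19 to 2.47 CPM against 0.474, 0.499 and 0 (-2.79 ± 0.71), and the linker histone gene H1f4 had 3.61 to 4.76 CPM against 1.16, 0.998 and 1.40 (-1.77 ± 0.56). Replicate 1 was as low as the others for Kif26b and H1f4, and between week 6 and the others for Car1, Slc4a4, Bmp3, Klb, Fndc5 and Adam12. Length-centred changes of Car1, Slc4a4, Bmp3, Klb and Fndc5 were called too, at -2.87, -1.82, -2.15, -2.67 and -2.61. Those of Kif26b and Adam12 did not pass, at -1.43 and -1.19 (adjusted p = 0.131 and 0.1).

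Neutrophil genes rose, and separated the libraries of week 14 from each other. Of 21 tested, 18 rose and none fell, with a median of 5.78, and a length-centred median of 5.47. By library the median difference was 0.12, 5.13 and 5.92, and the summed level of the list was 585, 18766 and 13775 CPM against 318 to 351 CPM at week 6. S100a8 (chr3:90668978-90670035) and S100a9 encode calprotectin, the main cytosolic protein of neutrophils. S100a8 had 0.184, 0.158 and 0.0940 CPM at week 6 and 0.158, 9273 and 5436 CPM at week 14. Its rise passed (adjusted p = 0.00616), with a length-centred change of 12.60. S100a9 had 0.125 to 0.398 CPM at week 6 and 0.395, 5800.1 and 4352 CPM at week 14. Replicate 1 thus lay inside the week 6 range for both genes, and the groups overlapped. Stfa2l1, a neutrophil stefin, had a single count over week 6, none in replicate 1 and 30.6 and 22.5 CPM in replicates 2 and 3, a ratio of the groups of 1216 (95% counting interval 218 to 48063). Lcn2, which encodes lipocalin 2, was at 1.42 CPM in replicate 1, inside the 0.506 to 1.87 CPM of week 6, and at 103 and 70.5 CPM in the others (5.80 ± 1.11). The lipocalin value of that same mouse was 2044 ng/g, far above the 4.72 ng/g that was the highest of week 6. That value is not an RNA level, and the labels do not name the material it was measured in. It need not follow Lcn2 RNA in the piece of colon. Cd177, a neutrophil surface protein that colonocytes express too, behaved otherwise: it had 103 to 148 CPM at week 6 and 370.3, 237 and 297 CPM at week 14. Cd177 rose by 1.23 ± 0.34 (adjusted p = 0.0157), and on TPM its change was -0.05, where the median over all genes was -1.15. The count of neutrophil genes that rose was 19 without replicate 1, and on TPM 13 rose and 1 fell.

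Chemokines that attract neutrophils followed the same libraries. Of 5 tested, 4 rose, with a median of 11.06 and medians by library of 0.49, 9.75 and 9.88. Cxcl1 had 0.0612, 0.158 and 0.125 CPM at week 6 and 0.290, 151 and 165 CPM at week 14, and rose by 9.80 ± 1.69 (adjusted p = 0.00616). Cxcl2 had 1 count over week 6, none in replicate 1, and 33.7 and 59.2 CPM in replicates 2 and 3, a ratio of 2208 (95% counting interval 396 to 87252). Cxcl3 had no count at week 6, 0.0263 CPM in replicate 1 and 71.4 and 87.4 CPM in the others, at least 1239-fold higher. These are the 3 genes whose promoters carry the NF-kB letters shown above, and the only 3 of the 5 whose promoters were searched. Cxcl5, an epithelial chemokine with the same receptor, had 0.0626 to 0.122 CPM at week 6 and 0.922, 1244 and 2011 CPM at week 14. For Cxcl1, Cxcl3 and Cxcl5 every library of week 14 was above week 6, but replicate 1 stood within 1 CPM of it. In bulk tissue, more cells of a type and more RNA per cell cannot be told apart, for these as for all lists below.

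CC chemokines and inflammatory cytokines rose in most members. Of 13 CC chemokines 12 rose and none fell (median 4.21, length-centred 1.92, by library 0.64, 4.58 and 3.72). Ccl7, which attracts monocytes, had 0.822 to 1.28 CPM at week 6 and 0.843, 943 and 495 CPM at week 14, a rise of 8.86 ± 1.77 with replicate 1 inside the week 6 range. Ccl4 had 3 counts over week 6, 0.158 CPM in replicate 1 and 11.5 and 6.18 CPM in replicates 2 and 3, a ratio of 135 (95% counting interval 45.9 to 659.9). Among 12 inflammatory cytokines 9 rose (median 3.34, length-centred 2.33). Il1b, the precursor of interleukin 1 beta, had 1.30 to 3.10 CPM at week 6 and 3.21, 468 and 354 CPM at week 14, and rose by 6.92 ± 1.49. Il6, the ligand of the STAT3-linked interleukin 6 receptor, had at most 0.0918 CPM at week 6 and 0.0263, 14.9 and 7.58 CPM at week 14 (7.36 ± 1.87, adjusted p = 0.0108). Tnf, tumour necrosis factor, differed from these in replicate 1. It had 0.398, 0.411 and 0.282 CPM at week 6 and 1.48, 26.4 and 47.6 CPM at week 14, and rose by 6.09 ± 1.00. The groups of Tnf did not overlap, and those of Il6 and Ccl7 did. On TPM 8 CC chemokines and 4 cytokines rose, and none fell.

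Lymphocyte effector genes were raised, with some of them high in replicate 1. Cytotoxic genes rose in 10 of 12 (median 3.60, by library 1.19, 4.16 and 3.58), where 24.5% of all genes rose. Their summed level was 23.5, 369.9 and 273 CPM at week 14 against 5.2 to 10.3 CPM at week 6. With length-centred counts 9 of the 12 rose and on TPM 7 did, where 21.4% and 5.58% of all genes did. Gzmb, granzyme B, had 0.184 to 0.407 CPM at week 6 and 1.95, 44.5 and 32.1 CPM at week 14 (6.42 ± 1.35). Gzmk, granzyme K, had no count at week 6 and 0.211, 1.31 and 1.30 CPM at week 14, at least 23.7-fold higher. With Gzma, these 3 proteases lay above week 6 in all 3 libraries. T cell genes, for the receptor complex and its signalling, rose in 9 of 17 (median 1.25, length-centred 0.85), where 24.5% of all genes rose. With length-centred counts 5 of the 17 rose, near the 21.4% of all genes. On TPM 2 rose and none fell, around a median of -0.14, where the median over all genes was -1.15. In replicate 1 10 of the 17 lay above the week 6 range, where 28.9% of all genes did. Cd3d, a chain of the T cell receptor complex, had 1.58 to 2.16 CPM at week 6 and 2.27, 73.8 and 39.2 CPM at week 14 (4.29 ± 0.96). Among T helper genes 6 of 11 rose, and also 6 with length-centred counts, where 24.5% and 21.4% of all genes did. On TPM 2 T helper genes rose and 1 fell. Il17a, the cytokine of Th17 cells, had no count at week 6 and 0.0790, 43.1 and 13.9 CPM at week 14, at least 421-fold higher. Ifng, interferon gamma, had 3 counts over week 6 and 0.105, 12.3 and 9.97 CPM at week 14, a ratio of 172 (95% counting interval 58.5 to 838). Il22, which acts on epithelium, had no count in replicate 1, 14.4 and 3.79 CPM in replicates 2 and 3, and up to 0.0626 CPM at week 6. On TPM the changes of Il17a and Ifng passed and that of Il22 did not (adjusted p = 0.0575).

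B cell genes gave no such result. Of 12 tested none passed, with a median of 0.05 and medians by library of -0.26, 0.49 and -0.16. Fcer2a, the low-affinity IgE receptor of B cells, had 13.6 to 22.8 CPM at week 6 and 9.96, 5.93 and 3.53 CPM at week 14, a change of -1.40 ± 0.63 (adjusted p = 0.0857 in edgeR). Plasma cell genes, for antibody secretion, rose in 10 of 18 (median 2.15, by library 0.58, 2.65 and 2.55). Ighg3, a heavy chain of IgG, had 0.980 to 2.57 CPM at week 6 and 12.1, 34.6 and 28.7 CPM at week 14. Ighg1 had 0.190 to 0.948 CPM at week 6 and 7.53, 12.3 and 3.17 CPM at week 14. Every library of week 14 was higher than every library of week 6 for both IgG genes, which rose by 3.71 ± 0.89 and 3.94 ± 1.01. Mzb1, a helper of antibody folding, was just above week 6 in replicate 1, with 11.7 CPM against 3.51 to 10.9, and at 168 and 107 CPM in the others. Length-centred counts called 6 plasma cell genes higher, and TPM 6 higher and 1 lower.

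Myeloid and mast cell genes rose in part. Of 18 macrophage and monocyte genes 8 rose (median 1.49, by library 0.04, 1.88 and 1.38). On TPM 3 rose and 4 fell around a median of -0.16. Over all genes 5.58% rose on TPM and 56.2% fell, around a median of -1.15. Arg1, arginase 1, had 0.376 to 0.581 CPM at week 6 and 0.184, 26.2 and 31.7 CPM at week 14, so that replicate 1 was the lowest library of the 6. Plac8 had 361 to 496 CPM at week 6 and 588, 18388 and 12563 CPM at week 14 (4.55 ± 0.85). Lyz2, lysozyme 2 of myeloid cells, had 287 to 387 CPM against 489, 6071 and 4583 CPM (3.43 ± 0.80). For Plac8 and Lyz2 the groups did not overlap. Mast cell genes rose in 4 of 8, led by the mucosal protease gene Mcpt2 with 0.595 to 1.38 CPM at week 6 and 1.66, 13.3 and 42.0 CPM at week 14. The summed level of the mast cell list was 58.5, 53.0 and 110 CPM at week 14 against 63.1 to 70.7 CPM at week 6. Replicates 1 and 2 were thus below every library of week 6. With length-centred counts 1 of the 8 rose, where 21.4% of all genes did. Fcer1a and Mcpt1 rose by 3.11 ± 1.01 and 2.49 ± 0.75, and with length-centred counts neither passed (adjusted p = 0.2 and 0.158).

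Interferon-gamma inducible genes were above the week 6 range in nearly all members and all libraries. Of 20 tested, 14 rose and none fell, with a median of 2.83, a length-centred median of 2.93 and medians by library of 0.69, 3.14 and 3.43. In replicate 1 18 of the 20 lay above the highest library of week 6, where 28.9% of all genes did, and in replicates 2 and 3 all 20 did. The list summed to 622, 2412 and 2396 CPM at week 14 and to 299 to 450 CPM at week 6. In the 3 wild-type libraries of week 6 it summed to 321, 834 and 364 CPM, a range that held replicate 1 of week 14. Cxcl9, a chemokine for T cells, had 1.84 to 4.01 CPM at week 6 and 4.64, 219.8 and 164 CPM at week 14 (5.48 ± 1.16). Cxcl11, its relative, had 0 to 0.569 CPM at week 6 and 0.342 CPM in replicate 1 and over 60 CPM in each of the others. Igtp had 7.98, 11.8 and 15.1 CPM at week 6 and 23.4, 157 and 176 CPM at week 14, and rose by 3.35 ± 0.97 (adjusted p = 0.0191). Replicate 1 was the closest to week 6 for each, and inside its range for Cxcl11. On TPM 7 of the 20 rose, and the change of Igtp did not pass (1.65, adjusted p = 0.105). Genes induced by type I interferon had 6 rises in 21 (median 0.95), near the 24.5% of all genes, and 2 with length-centred counts, where 21.4% of all genes rose, and by library their median was -0.21, 1.77 and 1.43. Zbp1, a sensor of nucleic acids, had 7.19, 9.89 and 23.3 CPM at week 6 and 29.4, 306 and 281 CPM at week 14 (3.93 ± 0.90). Isg15, a ubiquitin-like antiviral protein, had 2.63, 4.30 and 16.7 CPM against 4.72, 89.1 and 105 CPM. The groups of Isg15 overlapped, and its length-centred change of 0.86 did not pass (adjusted p = 0.429). On TPM 1 type I gene rose and 2 fell, with a median of -0.45. Over all genes 5.58% rose on TPM and 56.2% fell, around a median of -1.15.

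Antigen presentation genes rose, and more so on counts than on length-scaled values. Of 9 MHC class II genes 7 rose (median 1.96, by library 0.87, 2.52 and 2.20). In replicate 1 8 of the 9 lay above the week 6 range, where 28.9% of all genes did. H2-DMa, which loads peptides, had 19.3 to 24.1 CPM at week 6 and 46.2, 183 and 176 CPM at week 14 (2.62 ± 0.56). H2-Aa, a class II chain, had 321, 227 and 336 CPM at week 6 and 533, 2252 and 1796 CPM at week 14 (2.37 ± 0.56). Both had groups that did not overlap. With length-centred counts 2 class II genes passed, H2-DMa among them at 1.26 (adjusted p = 0.0468), and H2-Aa did not at 1.01 (adjusted p = 0.0776). Of 10 MHC class I genes 7 rose (median 1.70, length-centred 1.04). Psmb9, a subunit of the immunoproteasome, had 18.5, 19.6 and 24.7 CPM at week 6 and 43.3, 544 and 451 CPM at week 14, and rose by 4.05 ± 0.77. Psmb8, its partner, rose by 3.46 ± 0.65. B2m, the light chain of class I, had 537 to 601 CPM against 872, 4902 and 4073 CPM (2.54 ± 0.53).

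**Figure D3:**
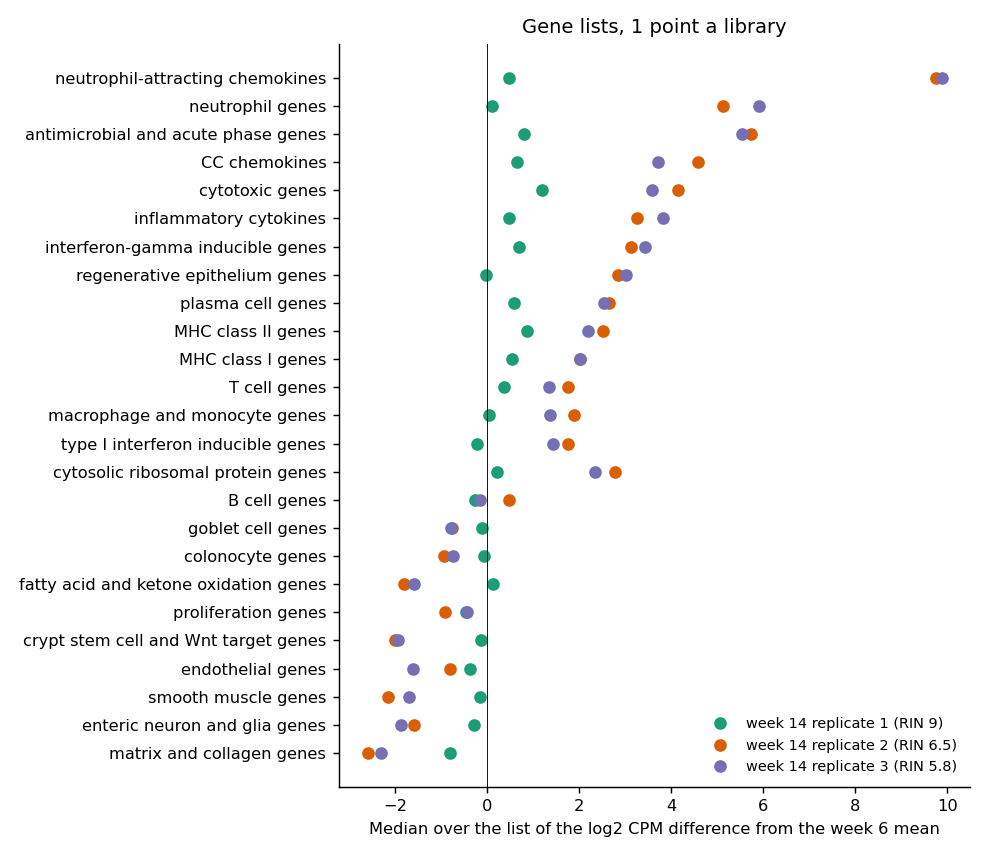
Median difference in log2 CPM from the week 6 mean over each of 25 gene lists (horizontal axis), with 1 point for each week 14 library. Replicate 1 lies between -0.80 (matrix and collagen genes) and 1.19 (cytotoxic genes), while replicates 2 and 3 lie up to 9.75 and 9.88 (neutrophil-attracting chemokines).

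Genes of secreted antimicrobial proteins of the epithelium rose in most members. Of 18 antimicrobial and acute phase genes 13 rose and none fell (median 5.28, length-centred 3.70, by library 0.81, 5.73 and 5.55). Reg3b, a lectin that acts on gut bacteria (chr6:78370657-78373466), had no count at week 6 and 0.158, 2552 and 378 CPM at week 14, at least 21101-fold higher. Reg3g, its neighbour, had 0.0306, 0.126 and 0.376 CPM at week 6 and 0.501, 1361 and 271 CPM at week 14 (11.55 ± 2.25). Saa3, an acute phase protein, had 0.316 to 0.642 CPM against 0.922, 174 and 149 CPM (7.66 ± 1.61). Replicate 1 was above week 6 for all 3 of these genes, but by less than 1 CPM. Pla2g2a, a secreted phospholipase that kills bacteria, had 10.1, 5.09 and 5.14 CPM at week 6 and 31.1, 1903 and 1207 CPM at week 14 (7.27 ± 1.23). Slpi, an inhibitor of neutrophil proteases, had 12.8 to 23.1 CPM at week 6 and 23.4, 1964 and 2961 CPM at week 14. On TPM 12 of the list rose and 1 fell.

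Genes of regenerating epithelium rose in most members, and were high in replicates 2 and 3. Of 18 regenerative genes 12 rose, with a median of 2.63 and medians by library of -0.03, 2.84 and 3.02. Sprr2h, which encodes a small proline-rich protein of cornified envelopes, had no count at week 6 and 0.158, 111 and 140.4 CPM at week 14, at least 1967-fold higher. Sprr2k, which is not on that list, was likewise at 0 at week 6 and at 0.0790, 78.3 and 83.6 CPM at week 14, at least 1256-fold higher. Members of this family are near-identical, and the split of reads between Sprr2h and Sprr2k is uncertain. Sprr1a had 1.19 to 3.48 CPM at week 6 and 4.14, 383 and 339.5 CPM at week 14 (6.75 ± 1.30). Ly6d, a surface protein of stratified epithelium, had 1.42 to 1.84 CPM against 1.50, 185 and 204 CPM, with replicate 1 inside the week 6 range. Ly6a (Sca-1), which marks regenerating crypts, was above it in each library, with 67.8 to 90.2 CPM at week 6 and 255, 5686 and 5124 CPM at week 14 (5.53 ± 0.95). Markers of keratinocytes and squamous epithelium summed to 7.9, 43.4 and 32.1 CPM at week 14 against 9.9 to 16.2 CPM. Of 11 tested 3 rose, Krt6a, Krt6b and Krt10, near the 24.5% of all genes, and of the other markers on that list Krt1, Krt4, Trp63, Ivl and Flg were too low to be in the gene table. The part of such tissue in the rise of the Sprr2 genes was not tested.

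Absorptive colonocyte genes went both ways. Of 24 tested 4 rose and 2 fell around a median of -0.38, where 24.5% and 8.56% of all genes did. The groups did not overlap for 3 higher and 8 lower, and over all genes for 19.2% and 21.5%. The falls were Car1, described above, and Scnn1b, a subunit of the epithelial sodium channel, with 18.1 to 30.1 CPM at week 6 and 15.1, 3.74 and 3.27 CPM at week 14 (-1.59 ± 0.54, adjusted p = 0.0374). Aqp4, a water channel, was higher in every library, with 72.0 to 104 CPM at week 6 and 219, 309 and 334 CPM at week 14 (1.72 ± 0.31, length-centred 2.08). Slc51b, a subunit of the bile acid exporter, had 2.05 to 2.17 CPM at week 6 and 5.14, 296 and 215 CPM at week 14 (6.34 ± 1.07). Fabp2, a fatty acid binding protein, had 3.79 to 5.78 CPM against 5.82, 39.2 and 31.8 CPM, and its rise of 2.50 ± 0.53 did not pass with length-centred counts (0.68, adjusted p = 0.15). Krt20, the keratin of the surface, rose by 1.14 ± 0.40 on counts and had -0.25 on TPM. On TPM 15 of the 24 fell and 1 rose, near the 56.2% of all genes, with a median of -1.71 against -1.15 over all genes.

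By the medians of their lists, fuel and detoxification genes of the colonocyte were lower in replicates 2 and 3 and close to week 6 in replicate 1. Of 17 genes of fatty acid and ketone oxidation 1 fell and none rose (median -0.79, length-centred -0.58, by library 0.13, -1.80 and -1.60). In replicate 1 9 of the 17 lay above the highest library of week 6, where 28.9% of all genes did. On TPM all 17 fell, where 56.2% of all genes did. The gene called on counts was Slc16a1, the butyrate and lactate transporter MCT1. It had 605, 560.3 and 611 CPM at week 6 and 411, 125 and 141 CPM at week 14 (-1.39 ± 0.36, length-centred -0.76). The groups of Slc16a1 did not overlap, with replicate 1 the closest to week 6. Cpt1a, which admits fatty acids to mitochondria, had 244 to 275 CPM at week 6 and 265, 21.8 and 27.3 CPM at week 14, and did not pass (adjusted p = 0.123). Of 22 xenobiotic metabolism genes 3 rose and 2 fell (median -0.49), where 24.5% and 8.56% of all genes did. By library their median was 0.12, -0.70 and -1.22. Their summed level was 2213, 2037 and 1729 CPM against 1997 to 2288 CPM, so that replicates 1 and 2 lay inside the week 6 range. On TPM 14 fell, near the 56.2% of all genes. Gsta4 and Ces2e, given next, were rises and do not stand for the list. Gsta4, a glutathione transferase, had 55.3 to 63.8 CPM at week 6 and 85.7, 287 and 332 CPM at week 14 (1.99 ± 0.38, length-centred 0.65 with adjusted p = 0.0505). Ces2e, a carboxylesterase, had 54.0 to 115 CPM against 156, 276 and 203 CPM, and rose by 1.43 ± 0.32 on counts and by 1.31 with length-centred counts.

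Secretory lineages were mixed. Goblet cell genes gave 4 rises, near the share of all genes, and no fall in 15 (median -0.52). Only 6 of the 15 had a change above 0. The groups did not overlap for 2 higher and 6 lower, and over all genes for 19.2% and 21.5%. In replicate 1 8 of the 15 lay below every library of week 6, where 29.7% of all genes did. Retnlb, Spink4 and Tff3, given below, were called higher and do not stand for the list. On TPM 2 rose and 10 fell, where 5.58% and 56.2% of all genes did. Retnlb, a goblet cell protein that acts on bacteria, had 0.345 to 1.80 CPM at week 6 and 2.69, 203 and 289 CPM at week 14 (7.53 ± 1.76). Spink4 had 99.1 to 139 CPM at week 6 and 128, 3492 and 2619 CPM at week 14, with replicate 1 inside the range (4.18 ± 0.77). Tff3, a trefoil peptide of mucus, had 828 to 954 CPM against 927, 4390.1 and 3402 CPM. Its rise of 1.72 ± 0.43 turned to -0.20 with length-centred counts. Of 14 enteroendocrine genes 6 rose and 1 fell. Tac1, the precursor of substance P, had 12.5 to 28.1 CPM at week 6 and 15.5, 679 and 683 CPM at week 14 (4.50 ± 1.00). Chga, the granule protein chromogranin A, had 53.5 to 66.8 CPM at week 6 and 40.2, 7.24 and 13.7 CPM at week 14 (-1.52 ± 0.53). Among 11 tuft cell genes Dclk1 fell, with 16.5 to 22.3 CPM at week 6 and 13.6, 4.37 and 4.52 CPM at week 14. The change of Dclk1 did not pass with length-centred counts (-0.36, adjusted p = 0.271).

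Crypt and cell cycle genes gave few results that held on every scale. Of 14 stem cell and Wnt target genes 1 rose and 1 fell (median -1.01, length-centred -0.54), where 24.5% and 8.56% of all genes did. On TPM 13 fell, where 56.2% of all genes did. Lrig1, a stem cell receptor, had 95.6 to 104 CPM at week 6 and 81.1, 24.5 and 28.1 CPM at week 14 (-1.15 ± 0.36, length-centred -0.26 with adjusted p = 0.131). Of 22 proliferation genes 5 rose and 7 fell, around a median of -0.66. The rises were near the 24.5% of all genes, and the falls were above the 8.56% of all genes. Birc5, which encodes the mitosis protein survivin, had 13.0 to 27.0 CPM at week 6 and 18.6, 169 and 163 CPM at week 14 (2.53 ± 0.58, length-centred 0.63 with adjusted p = 0.161). Mcm5 and Mcm6, subunits of the replicative helicase, were low in all 3 libraries. Mcm5 had 43.6, 50.7 and 64.9 CPM at week 6 and 25.2, 21.2 and 25.6 CPM at week 14 (-1.15 ± 0.29, adjusted p = 0.0106), and Mcm6 had 61.9 to 87.3 CPM against 40.5, 35.6 and 38.5 CPM. In replicate 1 18 of the 22 proliferation genes lay below the lowest library of week 6, where 29.7% of all genes did, and none above the highest. With length-centred counts 3 fell and none rose, and on TPM 13 of 22 fell, near the 56.2% of all genes, and none rose.

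Matrix and collagen genes fell in most members. Of 20 tested 13 fell and none rose, with a median of -1.58, a length-centred median of -0.77 and medians by library of -0.80, -2.59 and -2.31. In replicate 1 18 of the 20 lay below every library of week 6, where 29.7% of all genes did. The groups did not overlap for 16, all lower, where 21.5% of all genes were lower without overlap. Col1a1, a chain of type I collagen (chr11:94936224-94953042), had 440.2, 298 and 417 CPM at week 6 and 173, 29.7 and 30.3 CPM at week 14. Col1a1 fell by 2.31 ± 0.68 on the log2 scale (adjusted p = 0.02), and in cage A the difference was -1.35. Col5a1 and Col6a2, of collagens V and VI, changed by -2.19 ± 0.68 and -2.15 ± 0.74. Sparc, a matrix protein bound by collagen, had 514 to 759 CPM at week 6 and 345, 271 and 255 CPM at week 14, so its 3 libraries were closer together than those of Col1a1 (-1.06 ± 0.33, length-centred -1.13). With length-centred counts 7 of the 20 fell and on TPM all 20 did, where 5.28% and 56.2% of all genes fell. Of 13 genes of metalloproteinases, whose products cut matrix, and of their inhibitors, 6 rose and none fell. On TPM 3 rose and 4 fell, where 5.58% and 56.2% of all genes did. The groups did not overlap for 0 higher and 3 lower, near the 21.5% of all genes that were lower without overlap. For higher genes that share was 19.2%. The median difference in replicate 1 was -0.11, and the summed level was 513, 329 and 270.1 CPM against 552 to 691 CPM. Mmp7, the epithelial matrilysin, had 0.0306 to 0.0948 CPM at week 6 and 0.0790, 28.0 and 25.7 CPM at week 14, and Mmp10, stromelysin 2, had 0.348 to 1.01 CPM against 0.896, 26.0 and 14.5 CPM. Replicate 1 lay inside the week 6 range for Mmp7 and Mmp10.

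Vessel, nerve and muscle genes were lower chiefly in replicates 2 and 3. Of 16 endothelial genes 5 fell and 1 rose (median -0.86, length-centred -0.83), where 8.56% and 24.5% of all genes did. Cdh5, the cadherin of vessel walls, had 23.7 to 27.0 CPM at week 6 and 15.5, 1.68 and 1.19 CPM at week 14 (-2.03 ± 0.73, adjusted p = 0.045). Tek, the angiopoietin receptor, had 14.4 to 16.5 CPM against 9.35, 1.56 and 3.06 CPM (-1.72 ± 0.54), and both genes passed with length-centred counts. Of 15 neuron and glia genes 4 fell (median -1.10), where 8.56% of all genes did. With length-centred counts 1 of the 15 fell, near the 5.28% of all genes. Among the 4 was Nos1, the neuronal nitric oxide synthase, with 12.0 to 13.5 CPM at week 6 and 6.74, 1.19 and 0.415 CPM at week 14. The smooth muscle list had 1 fall in 13, near the 8.56% of all genes. It was the cardiac actin gene Actc1, with 52.7 to 100.5 CPM at week 6 and 41.0, 27.8 and 34.0 CPM at week 14. The groups did not overlap for 6 of the 13, all lower, where 21.5% of all genes were lower without overlap. The summed level of the muscle list was 7854, 3936 and 4923 CPM against 7783 to 8587 CPM. Myh11, the myosin of smooth muscle, had 897, 1052 and 1021 CPM at week 6 and 956, 36.3 and 34.1 CPM at week 14 (-1.53 ± 1.02, adjusted p = 0.218). On TPM 12 of the 13 muscle genes fell, Myh11 included, where 56.2% of all genes did. Without replicate 1 of week 14 the count on CPM was 9, where 36.5% of all genes fell.

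**Figure D4:**
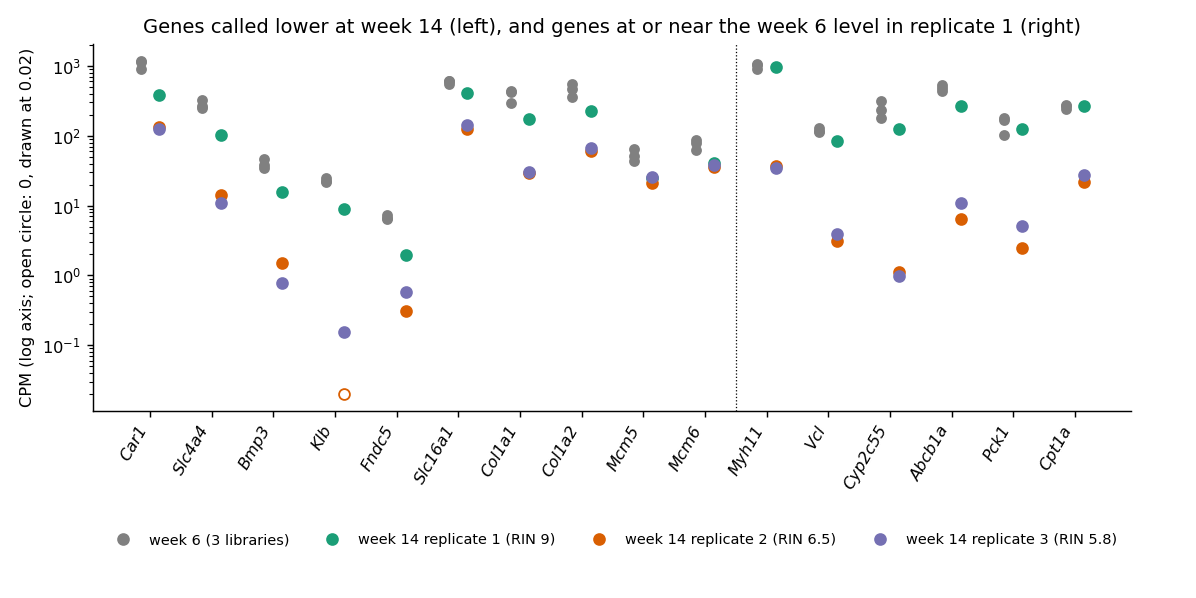
Level of 10 genes called lower at week 14 (left of the dotted line) and of 6 genes that did not pass (right), in each library (vertical axis, CPM on a log axis). Replicate 1 is below week 6 for the genes on the left, as for Col1a1 at 173 against 298 to 440.2, and for Myh11 on the right it has 956 where replicates 2 and 3 have 36.3 and 34.1.

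Genes of oxygen sensing, immediate early response and STAT3 signalling were examined as lists of their own. Of 17 hypoxia and glycolysis genes 7 rose and 1 fell (median 0.43). Egln3, an oxygen-sensing hydroxylase, was higher in every library, with 50.2 to 72.1 CPM at week 6 and 151, 347 and 493 CPM at week 14 (2.48 ± 0.38, length-centred 2.73). Bnip3, a mitochondrial protein of low oxygen, had 34.5 to 44.2 CPM against 34.7, 481 and 389.8 CPM. Immediate early genes, which respond within minutes to handling as well as to signals, rose in 6 of 13, as Fos with 35.1 to 39.7 CPM at week 6 and 29.3, 283 and 247 CPM at week 14 (2.31 ± 0.66). In the IL-10 receptor and STAT3 list 3 of 12 rose, near the 24.5% of all genes, and 4 fell, while with length-centred counts 4 rose and 1 fell. Socs3, the feedback inhibitor of STAT3, had 3.16 to 7.89 CPM at week 6 and 8.35, 137 and 114 CPM at week 14 (3.95 ± 0.80). Il22ra1, the epithelial receptor chain for interleukin 22, had 44.2 to 51.7 CPM against 36.5, 5.49 and 10.4 CPM (-1.45 ± 0.48, length-centred -1.36). On TPM 9 of 17 hypoxia genes, 4 of 13 immediate early genes and 7 of 12 STAT3 genes fell, shares near or under the 56.2% of all genes.

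Some genes separated replicate 1 from both other libraries of week 14 most widely. Among those low in replicate 1, beside S100a8, Reg3b and Cxcl5, were Spink6, Serpinb11 and Gml. Spink6, a protease inhibitor, had no count at week 6 or in replicate 1 and 57.3 and 59.7 CPM in replicates 2 and 3. Gml, a Ly6-like surface protein, had none either and 40.6 and 51.3 CPM in the others. Among those nearer to week 6 in replicate 1 was Cyp2c55, a cytochrome P450 of the colon, with 318, 182 and 235 CPM at week 6 and 125, 1.12 and 0.987 CPM at week 14. Abcb1a, the drug efflux pump P-glycoprotein, had 442 to 528 CPM against 267, 6.49 and 10.7 CPM. Pck1, an enzyme of gluconeogenesis, had 101 to 177 CPM against 124, 2.50 and 5.04 CPM, and Vcl, the adhesion protein vinculin, had 113 to 129 CPM against 84.5, 3.12 and 3.90 CPM. None of these 4 genes passed on counts, with adjusted p of 0.175, 0.0718, 0.161 and 0.0826, and each fell on TPM (adjusted p = 0.0122 in limma). With length-centred counts Abcb1a passed, at -2.07 (adjusted p = 0.0489). Ribosomal protein genes were the counterpart, with 20 of 20 tested called higher (median 2.12, by library 0.21, 2.79 and 2.36). With length-centred counts 6 of them passed around a median of 0.40, and on TPM 9 rose and 1 fell.

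Week 14 was set against the other ages to see where it differed by its own test. Against week 12 a single gene passed (0.00613% lower, 0.0% higher, 2825 at an unadjusted p under 0.05): 2610005L07Rik, outside the naming rule and named after its values were seen, had 8.98, 8.61 and 6.65 CPM at week 14 and 20.8, 22.4 and 19.4 CPM at week 12 (-1.37 ± 0.19, adjusted p = 0.0472). It was lower in all 3 libraries. The count was 7707 without replicate 1 of week 14 and 308 in DESeq2. In edgeR it was 0 without replicate 2 or 3 of week 14 (1068 and 1328 at an unadjusted p under 0.05) and without any 1 library of week 12. Against week 10, 30 genes were higher (0.184%) and 34 lower (0.209%). Cyp2c69, a cytochrome P450, had 3.58, 4.31 and 0.571 CPM at week 14 against 0, 0.102 and 0.0602 CPM at week 10 (5.56 ± 0.87, adjusted p = 0.0221). Edn2, endothelin 2, had 4.27, 4.31 and 5.09 CPM against 0.307, 1.19 and 0.482 CPM (2.77 ± 0.46). Sult1c2, a sulfotransferase, had 12.0 to 17.9 CPM against 2.34, 2.46 and 2.89 CPM (2.54 ± 0.47). Gbp10, a guanylate-binding protein, had 2.16, 0.624 and 2.75 CPM at week 14 and 26.1, 94.4 and 77.8 CPM at week 10 (-5.14 ± 0.88). Gbp9, of the same family, changed by -2.42 ± 0.34, and near-identical members make the split of reads among them uncertain. Xdh, xanthine dehydrogenase, had 74.0, 93.8 and 90.5 CPM against 285, 575 and 699 CPM (-2.59 ± 0.49). In these 6 genes the groups did not overlap. Fabp2, called higher by the same test, had 5.82 CPM in replicate 1 and 39.2 and 31.8 CPM in the others against 2.38 to 6.28 CPM at week 10, so that its groups overlapped. Inf2, a formin called lower, had 11.1, 4.49 and 3.79 CPM against 16.2 to 53.9 CPM, with replicate 1 the closest to week 10. Without replicate 1 of week 14 the count was 7182, without replicate 3 it was 12 and without replicate 2 it was 0 in edgeR (2038 at an unadjusted p under 0.05). Leaving out replicate 1 or 3 of week 10 gave 111 and 0 (3858 and 2063 at an unadjusted p), and DESeq2 on all libraries gave 1506.

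**Figure D5:**
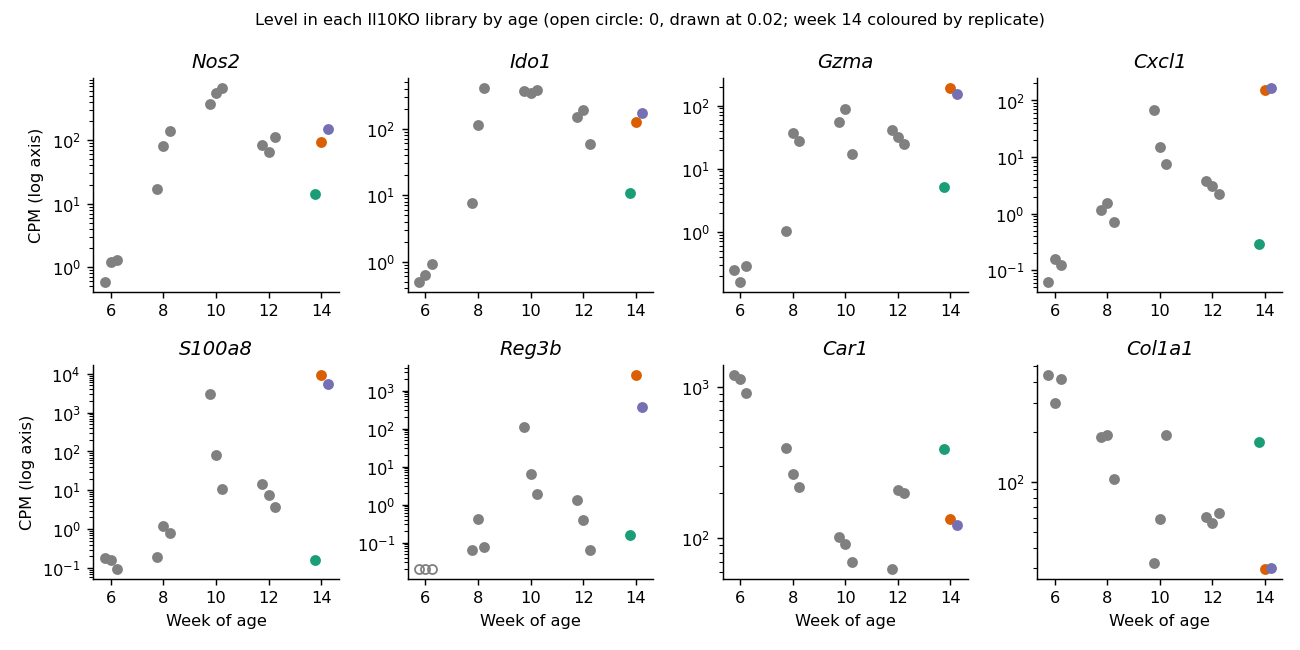
Level of 8 genes in each Il10KO library at weeks 6, 8, 10, 12 and 14 (horizontal axis, week of age, and vertical axis, CPM on a log axis), with week 14 coloured by replicate. Replicate 1 of week 14 is below the libraries of weeks 10 and 12 for Nos2, Ido1, Gzma and Cxcl1, and above them for Car1, where it has 387.

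The same genes were followed over the ages between. Nos2 had 373, 554 and 659 CPM at week 10 and 82.4, 65.9 and 112 CPM at week 12, so that replicates 2 and 3 of week 14 were near week 12 and replicate 1 was below both ages. S100a8 had 2983, 80.4 and 10.8 CPM at week 10 and 14.3, 7.49 and 3.63 CPM at week 12, under replicates 2 and 3 of week 14 and above replicate 1. Il17a had 4.27, 0.922 and 0.120 CPM at week 10 and 0.172 to 0.223 CPM at week 12. Car1 had 69.7 to 102 CPM at week 10 and 62.8, 209 and 198 CPM at week 12. None of these 4 genes passed between week 14 and week 12, with adjusted p of 0.999, 0.242, 0.242 and 0.657 in edgeR. All of these comparisons use the same 3 libraries of week 14, and the comparisons with week 6 share the same controls.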

How the data were processed

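Reads had been checked with FastQC and assigned with kallisto to mouse transcripts (mm10), per the submitters' processing notes, and versions are not given in the sources used here. The authors deposited estimated counts per transcript and per gene, with TPM and effective lengths. The deposited gene table holds genes whose estimated counts sum to at least 50. Estimated counts were rounded to whole numbers. The deposited TPM values were tested on log2(TPM + 0.1), so that the change of low genes is understated.

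Counts were tested with edgeR 4.0.16 (R 4.3.3), with TMM scaling, filterByExpr and quasi-likelihood fits over all 18 libraries with 1 term per group of genotype and week, and Benjamini-Hochberg adjustment over all genes. The SE is the change divided by the square root of F. Log2 CPM per library used a prior count of 2. A gene with no count at week 6 was given a lower bound from 3 counts over the group, and intervals cover counting error only. Alternatives used limma 3.58.1, DESeq2 1.42.0, other scalings and filters, RIN, cage and replicate as terms, and libraries left out. The length-centred fit was chosen after seeing the data. Gene lengths were the deposited transcript lengths, weighted by TPM over the 3 Il10KO libraries of week 6, or over all 18 where those gave none. Transcripts were matched to genes, and genes to locations, with GENCODE. Python 3.11.15, pandas 2.3.3, NumPy 2.4.6, SciPy 1.17.1 and matplotlib 3.10.9 were used otherwise.

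The comparison, the gene lists and the tests were chosen with earlier results of these data known. Named genes were the called genes whose groups did not overlap, with a mean log2 CPM of at least 1 in a group, taken as the 10 largest rises and falls and the 10 widest gaps in each direction. Also named were the 3 called members of each list with the largest change (or that with the smallest p), the 10 genes each way that set replicate 1 of week 14 apart, and the 5 largest called changes each way against weeks 10 and 12. Not all of these are printed. Igtp, Duoxa2, Cd177, Pla2g2a, Slpi, Ly6a, Scnn1b, Aqp4, Krt20, Cpt1a, Tff3, Chga, Mcm5, Mcm6, Sparc, Iigp1 and Col1a2 fall outside that rule and were chosen after their values were seen.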

Additional observations from a re-analysis of the deposited data

How the results depend on the processing

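Against week 6 the count of 5388 genes (3993 higher, 1395 lower) became 1937 (1600 and 337) with library size alone, 1377 (1096 and 281) in voom with a weight per group, 9778 (879 and 8899) in limma on log2(TPM + 1) and 10067 (909 and 9158) on log2(TPM + 0.1). In edgeR it was 0 with RIN as a covariate, with cage as a factor, without the libraries with RIN under 7 and with only the compared groups (429, 5020, 239 and 4257 at an unadjusted p under 0.05). DESeq2 called 2921 lower, the fit without wild type 337 lower, and length-centred counts, chosen after seeing the data, 847 lower. Leaving out 1 library gave 1880 to 11335 genes, 1847 to 5377 higher and 33 to 5958 lower. Against week 12 the count of 1 became 308 in DESeq2, 0 with RLE size factors, library size, RIN, cage, without wild type, without RIN under 7, with only the compared groups, on both TPM scales and in voom (3006, 1904, 2442, 1496, 2180, 3546, 602, 2459, 3015 and 361 at an unadjusted p), and 0 to 7707 without 1 library. Against week 10 the count of 64 became 136 with library size, 833 with RIN, 1784 without RIN under 7, 1506 in DESeq2, 474 and 405 on log2(TPM + 1) and log2(TPM + 0.1), 229 with length-centred counts, 0 with cage, without wild type, with only the compared groups and in voom (2099, 2805, 782 and 494 at an unadjusted p), and 0 to 7182 without 1 library. Fewer libraries were fitted in some of these; otherwise the cause was not tested.

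With a replicate block 5630 genes were called against week 6, 2 against week 12 and 37 against week 10. Replicate numbers do not pair the samples, since deviations of same-numbered libraries of weeks 6 and 14 had r of 0.06, -0.03 and 0.06. The lipocalin difference of 3361 ng/g was 2898 to 4020 ng/g without 1 sample.

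Of 124 changes given for named genes, 117 were called. Without the libraries with RIN under 7, 16 changed direction: Cxcl2 (-1.90), Stfa2l1 (-1.90), Ccl7 (-0.29), Il6 (-0.59), Il22 (-3.58), Arg1 (-1.29), Isg15 (-0.74), Ly6d (-0.11), Krt6a (-2.70), Krt6b (-0.59), Cpt1a (0.022), Tac1 (-0.39), Birc5 (-0.12), Bnip3 (-0.14), Fos (-0.36) and Serpinb11 (-3.58). With RIN as a covariate 4 did, Il22 (-0.54), Arg1 (-0.81), Krt6a (-1.62) and Fos (-0.12). On log2(TPM + 1) and log2(TPM + 0.1) Cd177 was at -0.047 and -0.052 and Krt20 at -0.25 on both. The medians over all genes on these TPM scales were -0.74 and -1.15. With length-centred counts Tff3 was at -0.20. Depth does not resolve genes of a few counts at week 6.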
